A study of Mus musculus with 61 samples.

Results

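Whole quadriceps of mice given a treatment meant to deplete regulatory T cells (Tregs) was compared with quadriceps of treated mice without the sensitizing receptor, 1 day after a bout of acute exercise. The comparison takes 3 Foxp3DTR+ and 3 Foxp3DTR- libraries, 6 of the 61 bulk RNA libraries of a study of Tregs and exercise, chosen by their labels and by no measured value. Foxp3DTR+ mice carry Foxp3-IRES-GFP.hDTR, a knock-in that places a diphtheria toxin receptor under the Foxp3 locus. Diphtheria toxin is used to kill Foxp3-expressing cells in all tissues of such mice, not in muscle alone. Foxp3DTR- mice received the toxin as well, so all 6 samples come from exercised, toxin-treated mice, and the genotype is what separates DTR+ from DTR-. The same experiment holds toxin-treated mice at day 7 after exercise, with 2 DTR+ and 2 DTR- libraries, and toxin-treated sedentary mice, with 2 DTR+ and 3 DTR- libraries. A separate training experiment holds 3 DTR+ and 3 DTR- mice that trained for 2 weeks with toxin. The labels give neither toxin dose and timing nor the age and sex of these mice. They number the samples without saying that each is a separate mouse, so p-values measure the spread between these samples.

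Tregs are the T cells that restrain inflammation, and in skeletal muscle they gather after injury or exercise and act on macrophages, on muscle stem cells and on cytokine-producing lymphocytes. Interferon-gamma, made by T and NK cells, binds its receptor on muscle and stromal cells and signals through JAK kinases. Its targets include guanylate-binding proteins, immunity-related GTPases, the immunoproteasome and the MHC genes that present antigen. Type I interferons use another receptor and act on genes through the interferon-stimulated response element (ISRE), and the targets of both signals overlap.

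The 6 day-1 libraries held 9653120 to 14445336 counts. Mitochondrial genes took 5.44 to 6.56% of counts, and 21211 to 26596 genes were detected, with ranges that overlapped between DTR+ and DTR-. The fast myosin Myh4 stood at 22841 to 28790 CPM (counts scaled to the library total) in DTR+ and 20136 to 21299 CPM in DTR- libraries, so the muscle marker was abundant in all 6. Foxp3 itself had 0, 2 and 0 counts in the DTR+ libraries and 2, 5 and 9 counts in the DTR- libraries. The mean was 0.0691 CPM in DTR+ and 0.473 CPM in DTR- muscle, and the groups overlapped in 1 DTR+ library (exact two-sided permutation test, p = 0.2, where the smallest possible p is 0.1). A count of 0 allows up to 3 counts, 0.208 to 0.311 CPM in these libraries, for counting error only. At these counts Foxp3 in whole muscle gives only a weak check of the depletion. Of 15 Treg markers 8 passed the filter on low counts, Foxp3 not among them. Of those 8, 5 were higher and 3 lower in DTR+ muscle (median log2 fold change 0.23), and 0 had an unadjusted p under 0.05. Ikzf4 and Tnfrsf18, 2 of the 8, were higher in every DTR+ than in any DTR- library, at under 2 CPM. Over all genes tested this held for 4.46%. The markers summed to 19.4, 22.3 and 22.2 CPM in DTR+ and 17.6, 17.8 and 22.2 CPM in DTR- libraries. Apart from Foxp3 these markers are also made by other cells, and they do not show a loss of Tregs in this muscle.

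DTR- replicate 2 stood apart from the other control libraries in interferon-induced genes. It was the highest of the 3 DTR- libraries in 30 of 37 interferon-gamma response genes (81.1%), 22 of 38 type I genes (57.9%), 17 of 18 MHC genes (94.4%) and 5 of 5 immunoproteasome genes, against 32.1% of all genes tested. It also led the DTR- libraries in 18 of 27 early response and heat shock genes (66.7%). By the labels it is a control and was kept as one, and it had the highest total and the lowest mitochondrial share of the 6 libraries. The interferon lists are given with and without it, as are the other lists whose direction or median it moves most.

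No gene passed the test between DTR+ and DTR- muscle at day 1. Of 14245 genes tested by edgeR's quasi-likelihood test, 0 (0%) had an adjusted p under 0.05, and 0 passed with DESeq2. A fit of the 6 libraries alone called 0 as well, with 699 of 13286 genes (5.26%) at an unadjusted p under 0.05, and a fit with no filter on low counts called 8 of 39356 (0.0203%). At an unadjusted p under 0.05 there were 280 genes (1.97%), 142 higher (0.997%) and 138 lower (0.969%) in DTR+ muscle. All 3 DTR+ libraries lay above all 3 DTR- libraries in 636 genes (4.46%) and below them in 886 (6.22%). Among the 8817 genes with a mean of at least 5 CPM the median standard error of a log2 fold change was 0.24, and 22 genes differed by more than 1 on the log2 scale. In the fit reported here the adjusted p was 1 for every gene tested, so the differences that follow are descriptions of 6 libraries. Their standard errors (SE) and p-values come from the fit of all 15 acute libraries. The estimate of the spread is thus shared with the rest and day-7 groups and is not that of the 6 libraries alone.

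Among the 12 genes with the smallest p on the higher side that met an expression minimum of 5 CPM and showed no overlap, 2 were interferon-induced, Rsad2 and Parp9. Snph, which encodes a protein that anchors mitochondria in axons, had the smallest p. It stood at 5.71, 6.11 and 6.21 CPM in DTR+ and 0.869, 1.8 and 2.75 CPM in DTR- libraries, a log2 fold change of 1.78 ± 0.53 (SE). The DTR+ libraries were close to each other and the DTR- libraries were spread. Itch, a ubiquitin ligase that limits T-cell help, stood at 23.6, 22.7 and 20.9 CPM in DTR+ and 15.4, 14.2 and 9.66 CPM in DTR- libraries (0.79 ± 0.25). Il6st, the shared signalling receptor gp130 of the IL-6 family, stood at 159, 172 and 146 CPM in DTR+ and 106, 127 and 133 CPM in DTR- libraries (0.41 ± 0.14). Il12a, a cytokine subunit used by both IL-12 and IL-35, stood at 5.37, 8.39 and 5.08 CPM in DTR+ and 3.71, 4.29 and 1.83 CPM in DTR- libraries (0.92 ± 0.32). The absence of overlap was a condition of the choice. Snph, Il12a, Cryl1 and Adgra3 met the 5 CPM minimum through the DTR+ group only. The others on this side were the lens crystallin relative Cryl1 (1.27), the drug efflux pump Abcb1b (0.96), the adhesion receptor Adgra3 (0.84), the autophagy gene Epg5 (0.76), the cofilin phosphatase Ssh2 (0.53) and the microtubule-end protein Clip1 (0.34). At rest the genotype difference was much as at day 1 for Il12a (0.92), Parp9 (0.89) and Abcb1b (0.87). It was -2.84 for Snph and -0.73 for Cryl1 at rest, and between -0.20 and 0.26 for the rest of the 12.

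**Figure D1:**
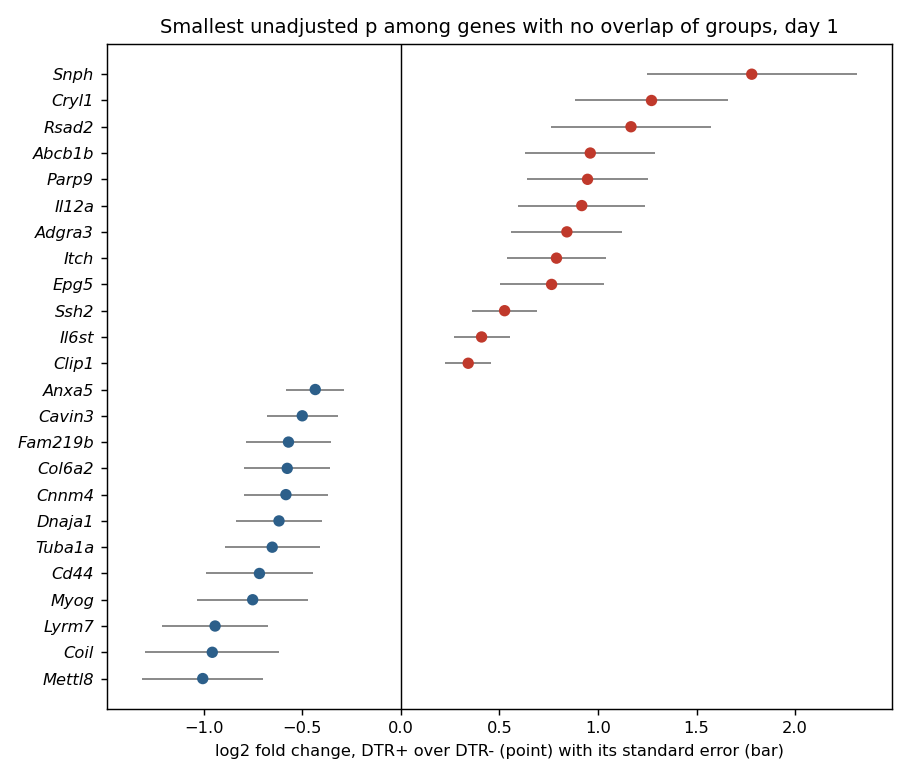
The log2 fold change of DTR+ over DTR- quadriceps at day 1 (horizontal axis) is drawn as a point with its standard error for the 12 higher and 12 lower genes with the smallest unadjusted p among genes whose groups did not overlap. Values run from 1.78 for Snph to -1.01 for Mettl8, and no gene passed the adjusted threshold.

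On the lower side the 12 genes included the myogenic factor Myog, the collagen chain Col6a2, the co-chaperone Dnaja1 and the hyaluronan receptor Cd44. Lyrm7, an assembly factor of respiratory complex III, had the smallest p there, at 6.75, 7.46 and 7.73 CPM in DTR+ and 19.3, 11.5 and 12 CPM in DTR- libraries (log2 -0.94 ± 0.27). Myog, which drives differentiation of muscle precursors, stood at 9.35, 12.3 and 14.9 CPM in DTR+ and 24.8, 22.5 and 15.2 CPM in DTR- libraries (-0.75 ± 0.28). Myog came close to touching, with the highest DTR+ and the lowest DTR- library nearly level. Cd44 stood at 9.35, 13.7 and 17 CPM in DTR+ and 21.6, 20.8 and 25 CPM in DTR- libraries (-0.72 ± 0.27). Anxa5, the phosphatidylserine-binding annexin, stood at 70.4, 74.7 and 75.1 CPM in DTR+ and 106, 99.3 and 97.5 CPM in DTR- libraries (-0.43 ± 0.15). In Anxa5 both groups were narrow and clearly apart. The others were Mettl8 (-1.01), Coil of Cajal bodies (-0.96), tubulin Tuba1a (-0.65), the magnesium transporter relative Cnnm4 (-0.58), Fam219b (-0.57) and the caveolar coat gene Cavin3 (-0.50).

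Interferon-induced genes were higher in DTR+ muscle in most list members, by amounts that did not pass the test. Of 37 tested genes of the interferon-gamma response list 25 were higher and 12 lower, with a median log2 fold change of 0.19, against a median of 0.00 over all genes tested. Of 38 type I interferon genes 30 were higher and 8 lower (median 0.36), and of 18 MHC and presentation genes 14 were higher and 4 lower (median 0.18). Over all genes tested 50.7% were higher and 49.3% lower. At rest the medians of these 3 lists were 0.56, 0.27 and 0.33, against -0.06 over all genes, so the lean was not particular to day 1. The DTR+ libraries at rest had the high mitochondrial shares given below. At day 1 these lists held 3, 3 and 1 higher members at an unadjusted p under 0.05 and 0 lower ones. Over all genes 0.997% were higher and 0.969% lower at that p. In the fit of the 6 libraries alone 9 of 33, 9 of 37 and 2 of 18 members were higher at that p and 0 lower. In that fit 5.26% of all genes reached it in either direction.

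Interferon-gamma itself could not be compared between the groups at the RNA level. Ifng had 0 counts in all 6 libraries, which allows up to 3 counts in each. None of the 13 tested genes for interferon receptors and their signalling had an unadjusted p under 0.05 (9 higher, 4 lower, median 0.09).

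The guanylate-binding protein gene Gbp4 (chr5:105115767-105139586, minus strand, GRCm38) shows the pattern in full. It stood at 36.2, 41.2 and 40.5 CPM in DTR+ libraries and at 6.71, 37 and 11.8 CPM in DTR- libraries (log2 1.11 ± 0.41, unadjusted p = 0.0135 by edgeR). DTR- replicate 2 lay within the DTR+ range, and the other DTR- libraries lay far below it. Gbp9 stood at 16.4, 12 and 12 CPM in DTR+ and 3.71, 13.4 and 3.36 CPM in DTR- libraries (0.99 ± 0.43). Gbp2 stood at 33.1, 28.3 and 33.3 CPM in DTR+ and 5.05, 34.9 and 11.7 CPM in DTR- libraries (0.90 ± 0.44). DTR- replicate 2 was within the DTR+ range for Gbp9 and above all DTR+ libraries for Gbp2. The annotation places Gbp4 almost wholly within Gbp9 (chr5:105077630-105139539) on the same strand. Reads from that stretch, and reads shared among these close family members, may have been counted for either gene. The treatment of such reads is not given in the sources used here.

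The immunity-related GTPases, which attack the vacuoles of intracellular pathogens, behaved likewise. Ifi47 (chr11:49076587-49096974, plus strand) stood at 13.8, 12.7 and 13.2 CPM in DTR+ and 1.5, 11.9 and 4.58 CPM in DTR- libraries (log2 1.16 ± 0.49), and its groups did not overlap. Iigp1 stood at 33.2, 42.2 and 37.1 CPM in DTR+ and 5.53, 37 and 8.34 CPM in DTR- libraries (1.15 ± 0.58). Igtp, which overlaps its neighbour Irgm2 in the annotation, stood at 29, 18.5 and 24.4 CPM in DTR+ and 9.64, 22.1 and 8.95 CPM in DTR- libraries (0.84 ± 0.50). The groups of Iigp1 and Igtp overlapped, in each case through DTR- replicate 2. Irf1, the transcription factor that relays interferon-gamma, stood at 17.3, 22.6 and 18.5 CPM in DTR+ and 12, 11.7 and 14.7 CPM in DTR- libraries (0.63 ± 0.38). Cd274, which encodes the inhibitory ligand PD-L1, stood at 10.6, 11.3 and 17.1 CPM in DTR+ and 2.76, 12 and 2.34 CPM in DTR- libraries (1.2 ± 0.65). Irf1 showed no overlap and Cd274 overlapped through the same DTR- library. The myeloid factor Irf8 (-0.29) was lower without overlap. Of the 37 tested interferon-gamma response genes 2 were higher and 1 lower without overlap, against 4.46% and 6.22% of all genes.

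Some antiviral genes of the type I list were separated between the groups. Rsad2 encodes viperin, an enzyme that makes a chain-terminating nucleotide. It stood at 15.1, 12.9 and 14.2 CPM in DTR+ and 2.84, 9.48 and 6.92 CPM in DTR- libraries (log2 1.17 ± 0.40, unadjusted p = 0.009 by edgeR). Parp9, an ADP-ribosyltransferase relative that works with Dtx3l in interferon signalling (chr16:35938470-35972605, plus strand), stood at 19, 17.2 and 14.9 CPM in DTR+ and 9.48, 8.79 and 8.65 CPM in DTR- libraries (0.95 ± 0.31, unadjusted p = 0.00573 by edgeR). Parp9 had the smallest p of the interferon and presentation lists, and its 3 DTR- libraries, replicate 2 included, were level with each other. Oasl2, of the oligoadenylate synthetase family, stood at 7.1, 8.6 and 13.1 CPM in DTR+ and 2.29, 7.68 and 3.97 CPM in DTR- libraries (1.08 ± 0.50). All 3 DTR+ libraries exceeded all 3 DTR- libraries in 7 of 38 members, and the reverse held in 0, against 4.46% and 6.22% of all genes. Beside Rsad2 and Parp9 these were the RNA sensor Ifih1 (1.06), Ifit3b (1.21), Ifi44 (0.93), Ifit2 (0.65) and the ubiquitin-like Isg15 (0.95).

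Genes of antigen presentation by MHC class I were next. Tap1, a subunit of the transporter that loads peptides into the endoplasmic reticulum (chr17:34187553-34197225, plus strand), stood at 19.5, 19.4 and 19.9 CPM in DTR+ and 6.63, 13.3 and 6.71 CPM in DTR- libraries (log2 1.16 ± 0.42, unadjusted p = 0.0121 by edgeR). Tap1 was nearly constant across DTR+ libraries, and every DTR- library lay below them. H2-T23, the mouse gene of the non-classical molecule Qa-1, stood at 18.6, 20.1 and 18.9 CPM in DTR+ and 11.1, 17.1 and 10.9 CPM in DTR- libraries (0.58 ± 0.29). H2-Q4 stood at 1.13, 1.55 and 1.82 CPM in DTR+ and 0.316, 0.9 and 0.61 CPM in DTR- libraries (1.31 ± 0.85). These 3 of the list's 18 tested members were higher without overlap and 0 were lower, against 4.46% and 6.22% of all genes. Reads of H2-T23 and H2-Q4 may be shared with other class I genes, and those near the joined starts of Tap1 and Psmb9 may be counted for either.

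The immunoproteasome is the proteasome form that cuts peptides for MHC class I. Of its 5 members 4 were higher and 1 of them had an unadjusted p under 0.05, against 0.997% of all genes. The list's median was 0.09 at day 1 and 0.93 at rest. Psmb9 stood at 7.88, 7.46 and 13.3 CPM in DTR+ and 2.45, 7.89 and 4.17 CPM in DTR- libraries (log2 1.01 ± 0.47). Psmb8 stood at 19.5, 23.7 and 24.4 CPM in DTR+ and 13.4, 17.8 and 15.3 CPM in DTR- libraries (0.57 ± 0.30). Psmb10 stood at 15.8, 16.2 and 12.8 CPM in DTR+ and 12.3, 16.9 and 13.4 CPM in DTR- libraries (0.09 ± 0.30). Psmb8 was separated between the groups, Psmb9 overlapped at DTR- replicate 2, and Psmb10 was intermixed.

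**Figure D2:**
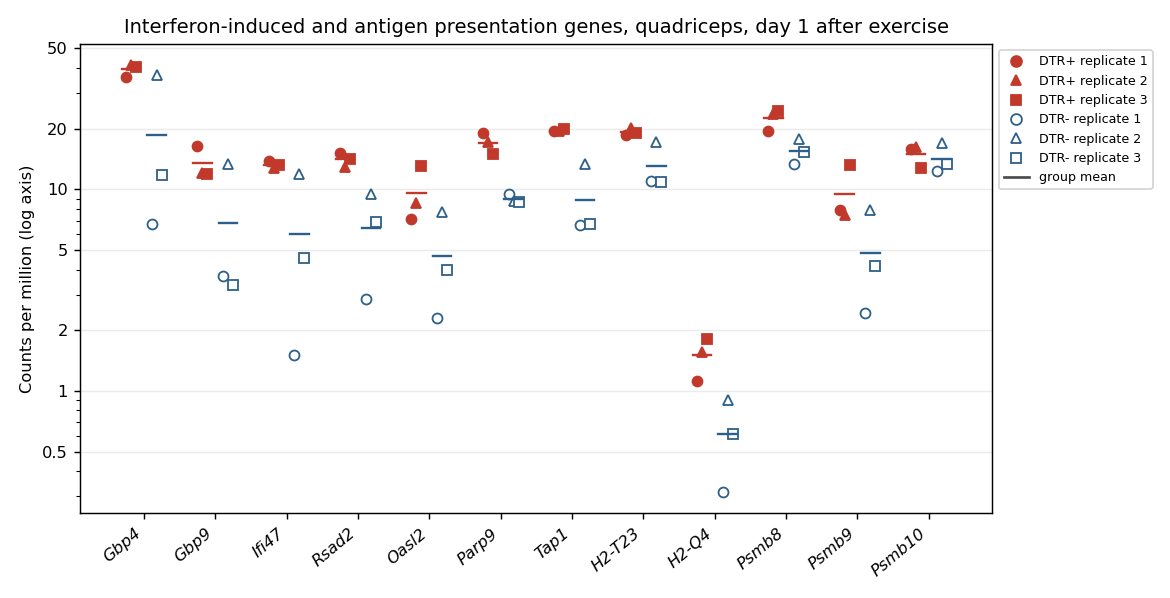
CPM (log axis) of 12 interferon-induced and presentation genes in each day-1 quadriceps library, with DTR+ as filled and DTR- as open symbols and lines at the group means. DTR- replicate 2 (open triangle) lies near the DTR+ libraries in Gbp4, at 37 CPM, and with the other DTR- libraries in Parp9, at 8.79 CPM.

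Without DTR- replicate 2, 31 of 37 interferon-gamma response genes were higher with a median of 0.57. Of these 9 had an unadjusted p under 0.05 (24.3% of the list, against 2.4% of all genes). The median of the type I list became 0.65, of the MHC list 0.38 and of the immunoproteasome 0.23. Even then 0 genes were called, and Gbp4 had the smallest adjusted p (log2 2.13, edgeR adjusted p = 0.0608). Parp9 stayed at 0.93 without that library. Without DTR- replicate 1 the medians were 0.15, 0.29 and 0.06 for the interferon-gamma, type I and MHC lists. In the interferon-gamma list 0 members had an unadjusted p under 0.05 without DTR- replicate 1 or 3, and 1 without DTR+ replicate 1.

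Summed over the interferon-gamma response list, levels were 479, 512 and 569 CPM in DTR+ and 292, 505 and 342 CPM in DTR- libraries (exact two-sided permutation test, p = 0.2, where the smallest possible p is 0.1). The ranges overlapped through 1 library of each group. Markers of cells that make interferon-gamma were near the floor. T and NK cell markers summed to 9.52, 19.3 and 13 CPM in DTR+ and 7.82, 10.7 and 12.5 CPM in DTR- libraries, with 16 of 26 past the filter on low counts, and Gzmb had counts in 1 DTR+ library. In bulk tissue, fewer cells of a type and less RNA per cell cannot be told apart.

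Sequences before the RefSeq start are shown for 4 of these genes, each with the letters of an interferon-linked motif in capitals. The motifs searched, on both strands of the 250 bases before each RefSeq start (GRCm38.p6), were the ISRE core (GAAA, any 2 bases, GAAA) and the gamma-activated site (GAS) TTCNNNGAA. The sequences run 5′ to 3′ toward the RefSeq start of the gene. Capitals mark the ISRE in Rsad2 (chr12:26456453-26456702, minus strand), H2-T23 (chr17:36032702-36032951, minus strand) and Igtp (chr11:58199306-58199555, plus strand), and a GAS in Psmb8 (chr17:34197945-34198194, plus strand) and Igtp.
Rsad2: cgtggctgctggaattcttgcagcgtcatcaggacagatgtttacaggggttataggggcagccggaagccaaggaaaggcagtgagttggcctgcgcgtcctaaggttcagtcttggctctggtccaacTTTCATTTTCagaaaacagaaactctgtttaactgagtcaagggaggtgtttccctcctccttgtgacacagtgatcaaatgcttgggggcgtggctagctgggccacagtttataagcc
H2-T23: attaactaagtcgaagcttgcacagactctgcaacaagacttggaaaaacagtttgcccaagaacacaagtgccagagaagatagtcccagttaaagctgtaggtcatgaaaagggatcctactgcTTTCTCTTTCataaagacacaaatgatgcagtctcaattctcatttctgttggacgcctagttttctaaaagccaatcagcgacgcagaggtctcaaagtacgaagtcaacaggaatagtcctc
Igtp: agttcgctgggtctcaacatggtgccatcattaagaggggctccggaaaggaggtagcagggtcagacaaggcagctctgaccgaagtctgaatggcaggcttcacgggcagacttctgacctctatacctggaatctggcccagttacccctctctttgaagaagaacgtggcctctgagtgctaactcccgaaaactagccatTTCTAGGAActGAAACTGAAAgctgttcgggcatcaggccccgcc
Psmb8: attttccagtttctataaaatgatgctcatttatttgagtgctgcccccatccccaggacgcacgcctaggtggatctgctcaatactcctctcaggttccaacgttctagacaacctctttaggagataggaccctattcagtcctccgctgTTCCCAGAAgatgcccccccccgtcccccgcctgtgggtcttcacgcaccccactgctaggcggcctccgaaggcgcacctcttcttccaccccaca

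In Rsad2 the ISRE began 120 bases before the RefSeq start and in H2-T23 124 bases before it, both read on the opposite strand. Igtp held a GAS 45 bases and an ISRE 34 bases before its start, side by side with no shared base. Psmb8 held a GAS 97 bases before its RefSeq start. GENCODE places some of these starts further upstream, at base 34197721 for Psmb8 and at base 36032855 for H2-T23. By that annotation the whole Psmb8 window and the ISRE of H2-T23 lie inside the gene. The ISRE letters were found in 11 of 23 interferon-gamma response genes with a promoter entry (47.8%), 11 of 28 type I genes (39.3%) and 3 of 15 MHC genes (20.0%), against 3.25% of 10565 tested genes with an entry. GAS letters were found in 10 of 23 interferon-gamma response genes (43.5%), against 7.13% of tested genes. They were found in 5 of 28 type I genes (17.9%), 1 of 15 MHC genes (6.67%) and 1 of 5 immunoproteasome genes, where the ISRE was found in 0. These genes were listed as interferon targets to begin with, so the shares describe the lists and not the day-1 difference. The windows of Tap1 and Psmb9, which lie head to head on chromosome 17, share 225 bases and held neither motif. The Psmb9 window also lies inside the gene as GENCODE places it. The windows of Ifi47 and Oasl2 held neither as well. Gbp4 and Parp9 have no entry in the promoter table.

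Early response and heat shock genes, which working muscle switches on after exercise, leaned the other way. Of 27 tested members 23 were lower and 4 higher in DTR+ muscle (median log2 -0.38), 3 had an unadjusted p under 0.05 and all 3 DTR+ libraries lay below all DTR- libraries in 7. Over all genes tested 0.969% were lower at that p and 6.22% were lower without overlap. In the fit of the 6 libraries alone 8 of 25 members were lower at that p and 0 higher, against 5.26% of all genes in either direction. The chaperone partner Dnajb1 stood at 24.1, 8.49 and 49.1 CPM in DTR+ and 35.9, 80.2 and 52.4 CPM in DTR- libraries (-0.98 ± 0.43). The transcription factor Klf4 stood at 4.76, 2.69 and 2.73 CPM in DTR+ and 7.74, 5.33 and 5.19 CPM in DTR- libraries (-0.82 ± 0.37). The antiproliferative gene Btg2 stood at 23.7, 22.7 and 27.2 CPM in DTR+ and 29.3, 39.7 and 35.1 CPM in DTR- libraries (-0.47 ± 0.22). Dnajb1 overlapped through DTR+ replicate 3, and Klf4 and Btg2 did not overlap.

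DTR+ replicate 3 was the highest of its group in 20 of these 27 genes (74.1%), against 29.9% of all genes tested. Without it the median was -0.55 with 10 members at an unadjusted p under 0.05 (38.5%, against 2.49% of all genes). The median was -0.17 without DTR+ replicate 2, with 0 such members. Without DTR+ replicate 1 or DTR- replicate 2 there was 1. Hspa1a, the inducible Hsp70, stood at 11.6, 3.21 and 17.3 CPM in DTR+ and 12.2, 34.7 and 20.6 CPM in DTR- libraries (-1.01 ± 0.51). Hspb1, a small heat shock protein, stood at 423, 281 and 786 CPM in DTR+ and 489, 863 and 649 CPM in DTR- libraries (-0.38 ± 0.26). The groups overlapped in both. The strain sensor Ankrd1 stood at 102, 70.5 and 233 CPM in DTR+ and 135, 230 and 170 CPM in DTR- libraries (-0.35 ± 0.31). At rest it averaged 3.54 CPM in DTR+ libraries, against 6.14 CPM in DTR- libraries, and every day-1 library of either genotype was above these means. Of 23 strain and repair genes 15 were lower and 8 higher (median -0.09), and the direction turned on single libraries. Without DTR+ replicate 2, 15 were higher and 8 lower (median 0.04), and without DTR- replicate 2, 14 were higher and 9 lower (median 0.06). Without DTR+ replicate 3 the median was -0.39.

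Genes of the extracellular matrix, the collagen scaffold made mainly by fibroblasts, were lower in DTR+ muscle in 31 of 37 tested members and higher in 6 (median log2 -0.20). At an unadjusted p under 0.05 there were 5 lower and 1 higher, and 8 were lower in every DTR+ library. Over all genes tested 0.969% were lower and 0.997% higher at that p, and 6.22% were lower without overlap. In the fit of the 6 libraries alone 10 members were lower and 1 higher at that p, against 5.26% of all genes in either direction. Col3a1, the type III collagen of loose tissue (chr1:45311538-45349706, plus strand), stood at 216, 304 and 260 CPM in DTR+ and 391, 353 and 482 CPM in DTR- libraries (-0.63 ± 0.25). Col6a1 stood at 88, 107 and 96.2 CPM in DTR+ and 136, 109 and 138 CPM in DTR- libraries (-0.37 ± 0.15). Col6a2 stood at 51, 61.3 and 57.6 CPM in DTR+ and 81.2, 66.7 and 111 CPM in DTR- libraries (-0.58 ± 0.22). All 3 showed no overlap, and in Col6a1 DTR+ replicate 2 and DTR- replicate 2 were nearly level. The third chain of type VI collagen, which surrounds the fibres, was lower as well (Col6a3, -0.61 ± 0.29). So were Col1a1 of type I collagen (-0.47 ± 0.26) and the fibrillin gene Fbn1 (-0.56 ± 0.30).

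The small proteoglycan gene Lum stood at 26, 40.3 and 29.9 CPM in DTR+ and 57.3, 35.7 and 45.3 CPM in DTR- libraries (-0.51 ± 0.24), with overlap. Aebp1 was the member higher in every DTR+ library (0.35). Summed over the list, matrix genes reached 2750, 3294 and 2933 CPM in DTR+ and 3524, 3314 and 3821 CPM in DTR- libraries. No DTR+ library reached the lowest DTR- library, although DTR+ replicate 2 and DTR- replicate 2 differed little (exact two-sided permutation test, p = 0.1, the smallest possible). This test was run on the sums of all 20 pathway and 18 cell-type lists, so some could reach 0.1 without a true difference. Leaving out DTR+ replicate 1 or DTR- replicate 3 left 0 members at an unadjusted p under 0.05, with medians of -0.15 and -0.22. Fibro-adipogenic progenitors are stromal cells that produce much of this matrix. Of their 17 markers 12 were lower and 5 higher (median -0.11), with sums of 2438 to 3847 CPM in DTR+ and 3054 to 3575 CPM in DTR- libraries. Without DTR+ replicate 1, 9 were lower and 8 higher (median -0.02), and without DTR+ replicate 2 the median was -0.34. Of 10 tendon markers 6 were lower (median -0.03), with medians of 0.02 without DTR+ replicate 2 and -0.21 without DTR+ replicate 3. The part of these cells in the matrix values was not tested.

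**Figure D3:**
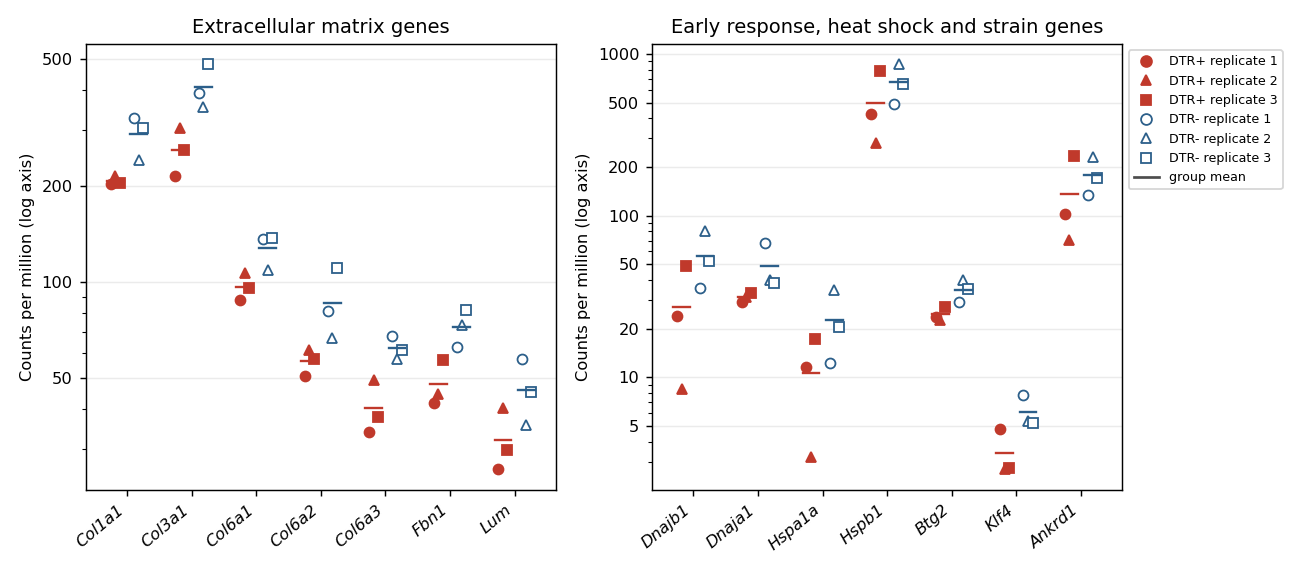
CPM (log axis) in each day-1 library of 7 matrix genes (left) and 7 early response, heat shock and strain genes (right), with DTR+ filled, DTR- open and lines at the group means. Col3a1 has DTR+ libraries at 216 to 304 CPM and DTR- libraries at 353 to 482 CPM, while Ankrd1 has a DTR+ library at 233 CPM among the DTR- values.

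Markers of macrophages and of dendritic cells were lower in DTR+ muscle in most members. For macrophages this rested on single libraries. Macrophage markers were lower in 17 of 24 members and higher in 7 (median log2 -0.22), and summed to 284, 402 and 385 CPM in DTR+ and 340, 534 and 458 CPM in DTR- libraries (exact two-sided permutation test, p = 0.3, where the smallest possible p is 0.1). Without DTR- replicate 2, 12 were higher and 12 lower (median -0.01), and without DTR+ replicate 1 the median was -0.06. Lyz2, the lysozyme of phagocytes, stood at 84, 110 and 110 CPM in DTR+ and 100, 191 and 154 CPM in DTR- libraries (-0.52 ± 0.23). C1qb, a complement chain made by tissue macrophages, stood at 23.1, 36.3 and 32.4 CPM in DTR+ and 41.5, 42.9 and 36.9 CPM in DTR- libraries (-0.38 ± 0.20), without overlap. Cd209a, a lectin of monocyte-derived dendritic cells, stood at 1.21, 1.14 and 3.03 CPM in DTR+ and 6.87, 3.18 and 4.58 CPM in DTR- libraries (-1.38 ± 0.46, unadjusted p = 0.0072 by edgeR). The monocyte attractant Ccl7 stood at 1.38, 2.49 and 3.71 CPM in DTR+ and 4.58, 5.95 and 4.27 CPM in DTR- libraries (-0.93 ± 0.52). Both were low in DTR+ libraries without overlap, at few counts. Of 6 dendritic cell markers 5 were lower and 1 higher (median -0.28), with medians of -0.45 to -0.27 leaving out 1 library. Their sums overlapped, at 9.78 to 16.5 CPM in DTR+ and 14.3 to 24.1 CPM in DTR- libraries. Neutrophil markers summed to 6.66, 6.22 and 5.83 CPM in DTR+ and 7.42, 7.06 and 6.71 CPM in DTR- libraries, without overlap (exact two-sided permutation test, p = 0.1, the smallest possible), although 4 of the 7 tested were higher. As for the matrix sum, many lists were put to this test. B cell markers (1 higher, 3 lower) and mast cell and eosinophil markers (3 higher, 3 lower) overlapped in their sums.

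Genes for mitochondrial respiration differed little in size. Nuclear genes of complex I, the entry point of electrons from NADH, were lower in 36 of 37 members with a median log2 fold change of -0.09, 0 at an unadjusted p under 0.05 and 5 lower without overlap, against 6.22% of all genes. Those of complexes II to V were lower in 38 of 42 (median -0.08), with 6 lower without overlap. Ndufa8 stood at 284, 262 and 297 CPM in DTR+ and 354, 318 and 318 CPM in DTR- libraries (-0.20 ± 0.13). Cox6a1 stood at 24.1, 27.7 and 31.2 CPM in DTR+ and 37, 35.4 and 35.2 CPM in DTR- libraries (-0.35 ± 0.17). In both genes every DTR+ library was below every DTR- library.

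The complex I count rested on DTR- replicate 1, which was the highest DTR- library in 33 of 37 members (89.2%, against 28.8% of all genes). Without it 21 were lower and 16 higher, with a median of -0.01. It was also the highest DTR- library in 29 of 42 genes of complexes II to V, where without it 29 were lower and 13 higher (median -0.01). The 13 mitochondrially encoded mRNAs were higher in 8 and lower in 5 (median 0.03), and higher in 6 and lower in 7 without DTR- replicate 1 or DTR- replicate 2. Ppargc1a encodes a coactivator that drives mitochondrial genes. It stood at 39.3, 31.9 and 35.7 CPM in DTR+ and 51.8, 36.6 and 55.6 CPM in DTR- libraries (-0.40 ± 0.19, unadjusted p = 0.0491 by edgeR), with overlap. Its list of 15 coactivators and partner factors was balanced, with 7 higher and 8 lower (median -0.05, and 0.17 without DTR- replicate 3). Pfkfb3, a glycolytic activator, stood at 289, 288 and 312 CPM in DTR+ and 97.5, 230 and 202 CPM in DTR- libraries (0.79 ± 0.33), without overlap. The glycolysis and glycogen list was balanced, with 13 higher and 10 lower (median 0.00), though 18 were higher and 5 lower without DTR- replicate 1 (median 0.07).

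Both main fast and slow myosins were above DTR- muscle in every DTR+ library. The slow myosin Myh7 stood at 164, 163 and 153 CPM in DTR+ and 107, 121 and 130 CPM in DTR- libraries (log2 0.45 ± 0.17), and 12 of 14 slow fibre genes were higher (median 0.18). The fast myosin Myh4 stood at 23619, 22841 and 28790 CPM in DTR+ and 20136, 21299 and 21263 CPM in DTR- libraries (0.29 ± 0.12), and 10 of 14 fast fibre genes were higher (median 0.10). At an unadjusted p under 0.05 there were 1 slow and 2 fast members, all higher, against 0.997% of all genes higher. The slow median was 0.06 without DTR- replicate 2, and the fast list had 7 higher and 7 lower without DTR- replicate 3 (median 0.04). Of 10 markers of pericytes and smooth muscle 6 were higher, and 5 without DTR+ replicate 3, DTR- replicate 2 or DTR- replicate 3. Among them the pericyte receptor Pdgfrb stood at 46.9, 40.2 and 40.5 CPM in DTR+ and 24.9, 33 and 33.3 CPM in DTR- libraries (0.52 ± 0.23).

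**Figure D4:**
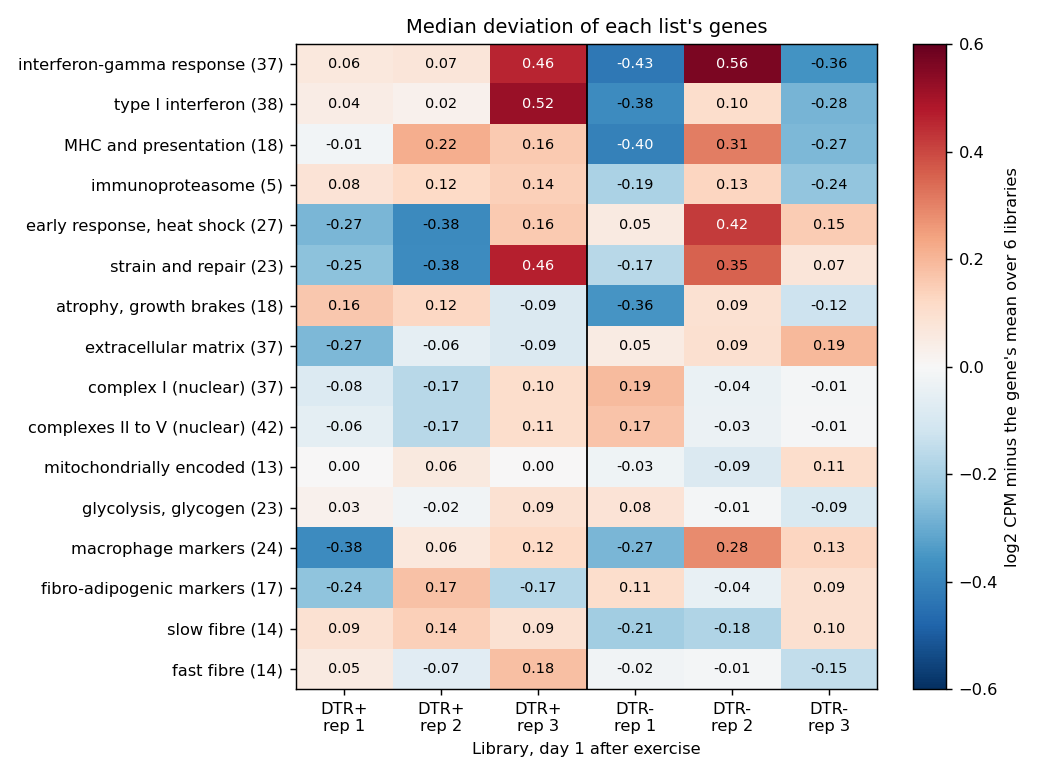
Each cell gives the median, over a list's tested genes (number in brackets), of log2 CPM in a library minus the gene's mean over the 6 day-1 libraries, with DTR+ libraries on the left. DTR- replicate 2 is at 0.56 for the interferon-gamma response beside -0.43 and -0.36 in the other DTR- libraries, and DTR+ replicate 3 is at 0.46 for strain and repair beside -0.25 and -0.38 in the other DTR+ libraries.

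The genotype difference at day 1 differed from that at day 7 in many genes. The test of that difference called 2406 of 14245 genes (16.9%), 1083 with a more positive difference at day 7 (7.6%) and 1323 with a more negative one (9.29%). Once a fitted dependence on GC content and gene length was taken out, the split was 62.4% in place of 45% positive, over 1531 genes. The interferon-gamma list held 25 genes with a more positive difference at day 7 and 0 with a more negative one. The MHC list held 11 and 0, the immunoproteasome all 5, and the type I list 5 and 0. The medians of the genotype difference were 0.56 at rest, 0.19 at day 1 and 3.72 at day 7 for the interferon-gamma list. They were 0.27 at rest, 0.36 at day 1 and 1.46 at day 7 for the type I list. The day-7 values rest on 2 DTR+ libraries that differ widely, with 1112 and 7836 CPM summed over the interferon-gamma list, against 280 and 291 CPM in DTR- libraries.

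Gbp4 differed by 2.61 ± 0.71 between the times (edgeR adjusted p = 0.0142), with 31.9 and 66.4 CPM in DTR+ and 5.71 and 3.68 CPM in DTR- libraries at day 7. Psmb8 differed by 3.17 ± 0.48 (adjusted p = 0.000187) and Tap1 by 2.38 ± 0.70 (adjusted p = 0.0231), with 12.9 and 72.1 CPM in DTR+ and 5.27 and 3.79 CPM in DTR- libraries at day 7. Rsad2 did not pass, at 1.25 ± 0.66 (adjusted p = 0.221), nor did Parp9, at -0.25 ± 0.49 (adjusted p = 0.799). For Parp9 the genotype difference was 0.89 ± 0.35 at rest, 0.95 ± 0.31 at day 1 and 0.70 ± 0.38 at day 7.

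Respiratory genes differed between the times as well. Of 37 complex I genes 32 had a more positive difference at day 7 than at day 1, and 33 a more negative one at day 1 than at rest, with medians of 1.00 at rest, -0.09 at day 1 and 1.05 at day 7. The test of day 1 against rest called 2185 genes (15.3%), 1254 with a more positive difference at day 1 (8.8%) and 931 with a more negative one (6.54%). With the length and GC trend removed the split was 38.5% in place of 57.4% positive, over 1434 genes. Both tests use the same day-1 libraries.

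The DTR+ libraries at rest and at day 7 stood apart from all others of the experiment. Mitochondrial genes took 20.0 to 23.5% of their counts, and 14701 to 15306 genes were detected in them. At day 1 the DTR+ share was 5.53 to 6.31%, close to DTR- at day 1. The part of these library differences in the tests between times was not tested. Pdk2, the kinase that restrains pyruvate oxidation, shows the same at gene level. At day 1 it averaged 796 ± 66.9 CPM in DTR+ muscle, against 747 ± 59.3 CPM in DTR- muscle (SD, n = 3 each). At day 7 it averaged 87.5 ± 12.5 CPM in DTR+ muscle, against 656 ± 113 CPM in DTR- muscle (SD, n = 2 each).

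**Figure D5:**
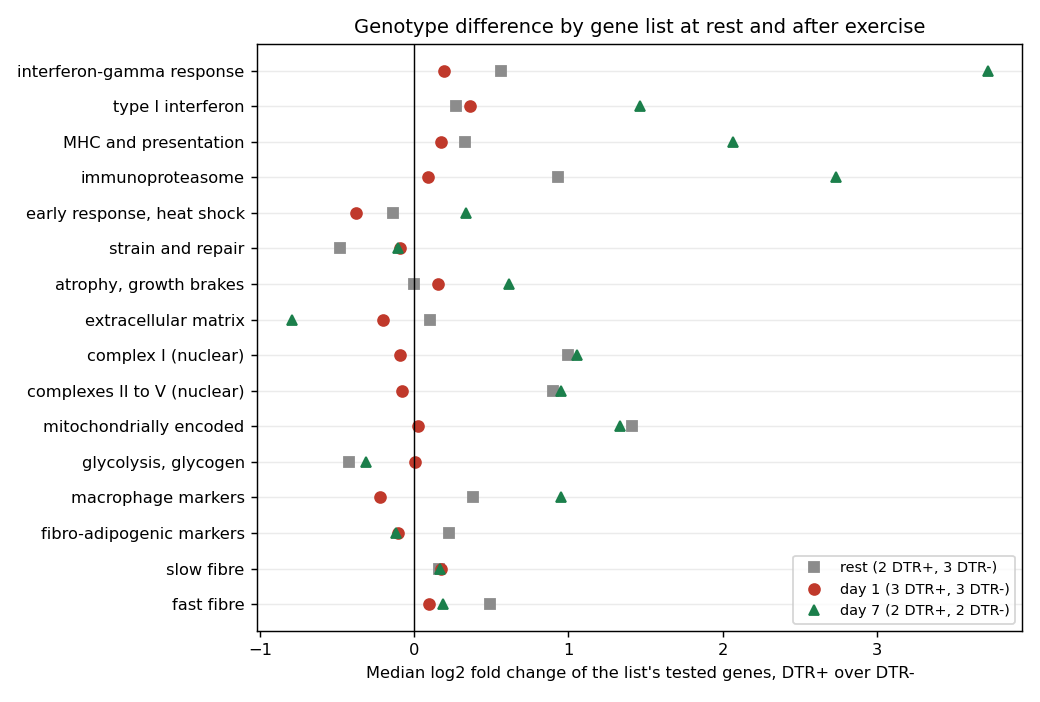
Median log2 fold change of DTR+ over DTR- quadriceps (horizontal axis) for 16 gene lists at rest (squares), day 1 (circles) and day 7 (triangles). The interferon-gamma list is at 0.56, 0.19 and 3.72, and complex I genes at 1.00, -0.09 and 1.05.

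Training provided a set of genes from libraries that share none with day 1. Trained DTR+ against trained DTR- muscle gave 112 called genes of 12579 (0.89%), 78 higher (0.62%) and 34 lower (0.27%). Of the 78, 77 were tested at day 1 and 57 of them were higher there (74.0%), with a median log2 fold change of 0.31 at day 1 and 2.29 in trained muscle. Of these 77, 27 were on the interferon-gamma list, 12 on the type I, 11 on the MHC and 3 on the immunoproteasome list. Their day-1 values were already described above, so the set is not separate from those lists. At day 1, 11 of the 77 had an unadjusted p under 0.05 and were higher, against 0.997% of all genes. Above all DTR- libraries lay 10 (13.0%, against 4.46% of all genes). The median deviation of these genes from their day-1 means was 0.08, 0.18 and 0.36 on the log2 scale in DTR+ and -0.50, 0.35 and -0.35 in DTR- libraries, with DTR- replicate 2 again among the DTR+ values. The 1613 genes called higher at day 7 (11.3%) showed no such lean, with 43.4% higher at day 1 (median -0.03) and 4.28% above all DTR- libraries. Of the 1995 called lower at day 7 (14%), 53.7% were higher at day 1 (median 0.02). Of the 34 called lower in trained muscle, 21 were lower and 13 higher at day 1 (median -0.05).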

How the data were processed

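The authors deposited raw gene counts for 61 libraries and 55011 genes. STAR 2.7.3a, mm10 and featureCounts are named in the submitters' processing notes. Per the labels' protocols, libraries were made from polyA RNA by an ultra-low-input method. For strandedness, multimapping reads and annotation the setting is not given in the sources used here. The 15 acute Foxp3-DTR libraries, in 6 groups, were fitted together with edgeR 4.0.16 in R 4.3.3 (TMM scaling, filterByExpr with a minimum count of 10 and total of 15, quasi-likelihood F tests, Benjamini-Hochberg adjustment over all genes tested, threshold 0.05). The training libraries were fitted apart, in 1 fit of 12. Each SE was taken as the absolute log2 fold change divided by the root of its F value. Levels are CPM computed from the counts. Coordinates come from GENCODE vM21 (GRCm38) and upstream sequences from RefSeq GRCm38.p6. Steps were tested on simulated data, where the day-1 comparison found 27 of 100 genes changed by 1 on the log2 scale. It found 78 of 100 genes changed by 2 and also called 17 unchanged genes. A count of 0 therefore does not show an absence of change, in particular of changes near 1 on the log2 scale or smaller.

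The members, lists and named genes were chosen with earlier results of these data known. Genes were named by a rule: the 12 smallest p per direction among genes of at least 5 CPM without overlap, up to 3 members of each of 20 pathway and 18 cell-type lists, 8 genes per test between times, and Foxp3, Ifng, Ppargc1a, Rsad2 and Gbp4. Genes called without a filter on low counts, and Ifih1, Ifit3b, Ifi44, Ifit2, Isg15, Irf1, Irf8, Gbp2, Cd274, Col6a3, Col1a1, Fbn1, Aebp1, Ankrd1, Hspa1a and Hspb1, were added after their values were seen. DESeq2 1.42.0, limma 3.58.1 and other settings were alternatives. No library was dropped.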

Additional observations from a re-analysis of the deposited data

Results flagged for a closer look

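The genotype difference (DTR+ minus DTR-, log2) differed between times in 2406 genes for day 7 against day 1 and in 2185 genes for day 1 against rest, each by a test of the difference itself in the fit of 15 libraries (edgeR, adjusted p under 0.05). The 8 genes of smallest p in each are on none of the gene lists. For day 7 minus day 1 these were Pdk2 (-2.74), the autophagy receptor relative Calcoco1 (-4.05), the skeletal myosin light chain kinase Mylk2 (-3.08), the calcium channel of excitation-contraction coupling Cacna1s (-2.43), the sarcomeric pseudokinase Alpk3 (-2.80), the dynactin subunit Dctn1 (-3.21), Arfgap2 (-2.68) and Fastk (-3.12). For day 1 minus rest these were Pdk2 (2.79), Mylk2 (3.10), Cacna1s (2.42), Arfgap2 (3.18), the lactate exporter Slc16a3 (3.33), Zfp652 (2.62), the ubiquitin ligase subunit Asb2 (1.79) and the proteoglycan Gpc1 (2.93). In all 12 genes the day-1 difference lay between -0.08 and 0.37. At rest Mylk2 averaged 34.1 ± 2.87 CPM in DTR+ muscle (SD, n = 2), against 281 ± 69.4 CPM in DTR- muscle (SD, n = 3). At day 1 it averaged 804 ± 104 CPM in DTR+ muscle, against 630 ± 154 CPM in DTR- muscle (SD, n = 3 each). The DTR+ libraries at rest and day 7 also had the high mitochondrial shares given above, and the part of those in these differences was not tested.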

How the results depend on the processing

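At day 1, 0 genes were called under every alternative except no filter on low counts, which called 8 of 39356 (6 higher: Iigp1, Gbp4, Igtp, AW112010, Pfkfb3 and Gm10800; 2 lower: Scd1 and G0s2). Their fold changes hardly moved but their SEs shrank, for Iigp1 to 0.17 in place of 0.58 (edgeR adjusted p = 6.3e-07); the cause was not tested. The number at an unadjusted p under 0.05 was 280 in the reported fit, 314 with DESeq2, 277 with RLE scaling, 900 with limma voom, 248 with the length and GC trend removed, 699 in a fit of the 6 libraries alone, 690 without the filter, and 154 to 350 leaving out 1 library.

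With that trend removed, 1531 genes differed between day 7 and day 1 and 1434 between day 1 and rest. Leaving out 1 day-1 library gave 1901 to 2092 and 1653 to 1925.

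Replicate numbers showed no pairing (correlations of same-numbered deviations 0.043, -0.029 and -0.004). A replicate block called 0 genes at day 1, and 1980 and 2789 between times.

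Of 169 named genes tested, 12 changed sign under an alternative, all small or scarce. Igkc (-0.08) was 0.40 with voom, 0.068 with the block and -0.69 to 0.43 leaving out 1 library. With the trend removed, Alpk3 was -0.022 and Zfp652 -0.098. Leaving out 1 library gave -0.53 to 0.059 for Zbtb46, -0.56 to 0.87 for Clec9a, -0.95 to 0.041 for Cma1, -0.28 to 0.48 for Mmrn1 and -0.28 to 0.068 for Hba-a1. It gave -0.014 to 0.086 for Alpk3, -0.025 to 0.12 for Arfgap2, -0.16 to 0.013 for Fastk, -0.12 to 0.0404 for Slc16a3, -0.045 to 0.092 for Zfp652 and -0.018 to 0.10 for Gpc1. With 3 libraries a group, single-value permutation tests cannot go below p = 0.1, and genes under about 1 CPM rest on a few counts.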

Other observations

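The 8 genes called only without a filter on low counts include metabolic genes that the interferon lists do not hold. Scd1, a desaturase of fatty acid synthesis, stood at 38.2, 49.3 and 60.6 CPM in DTR+ and 57, 59.4 and 164 CPM in DTR- libraries at day 1 (log2 -0.87 ± 0.38), with DTR- replicate 3 far above the rest. G0s2, an inhibitor of triglyceride breakdown, stood at 27.4, 27.6 and 19.6 CPM in DTR+ and 88.9, 23.6 and 35 CPM in DTR- libraries (-0.98 ± 0.39), with DTR- replicate 1 far above the rest. In both genes the groups overlapped and 1 control library set most of the difference. AW112010, a long transcript induced in inflamed tissue, stood at 26.9, 40.2 and 28.1 CPM in DTR+ and 10.1, 24.5 and 16.5 CPM in DTR- libraries (0.92 ± 0.30), without overlap.

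Among metabolic genes without overlap, Ucp3, the uncoupling protein of muscle, stood at 35.6, 40 and 42.1 CPM in DTR+ and 46.8, 53 and 56 CPM in DTR- libraries (-0.37 ± 0.15). Phka1, a regulatory subunit of phosphorylase kinase in muscle, stood at 733, 742 and 754 CPM in DTR+ and 594, 668 and 613 CPM in DTR- libraries (0.28 ± 0.13). Of 28 fatty acid genes, Ucp3 among them, 2 were lower and 0 higher without overlap. Of 23 glycolysis and glycogen genes, Phka1 among them, 3 were higher and 0 lower without overlap. Over all genes 4.46% were higher and 6.22% lower in this way. The fatty acid list was balanced, with 15 higher and 13 lower (median 0.01). Clock, of the circadian loop, stood at 13.7, 15.1 and 13.9 CPM in DTR+ and 11.5, 12.3 and 9.97 CPM in DTR- libraries (0.36 ± 0.24). The clock list as a whole had 12 higher and 7 lower members (median 0.09), and 0 at an unadjusted p under 0.05.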
